A study of Mus musculus with 15 samples.

Results

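The hypoxia and glycolysis genes are a fixed list of 36 genes, and all 36 were found by symbol among the 54232 gene IDs of the deposited tables. They comprise 12 glycolytic enzymes, 4 regulators of glycolysis and lactate export, 5 genes of the oxygen-sensing machinery, 3 secreted signals, 2 carbonic anhydrases, 4 collagen-modifying enzymes and 6 intracellular genes of the hypoxic response. RNA was sequenced from 15 libraries of brain tumours that C57BL/6 mice developed after virus-producing chicken cells (DF-1) were injected into the cortex. In these mice the Nestin promoter drives Tv-a, a receptor for avian viruses, so that only Nestin-expressing cells take up the RCAS viruses. The viruses carried Cre, the growth factor PDGFA and GFP-tagged histone H3.3, and every group, controls included, carries floxed p53 and receives Cre and PDGFA. In 8 tumours Atrx was floxed too: 4 received H3.3G34R (ATRXfl_G34R) and 4 the wild-type histone, H3.3WT (ATRXfl_WT). In 7 tumours Atrx was intact: 3 received H3.3G34R (p53_G34R) and 4 received H3.3WT (p53_WT). H3.3G34R is the glycine-to-arginine histone mutation of hemispheric gliomas, and the ATRX protein is a remodeller that places H3.3 at repeats. Each library is called a tumour here. Titles open with a code whose meaning is not given, and 3 pairs of tumours share one: ATRXfl_G34R replicates 1 and 4, p53_G34R replicates 2 and 3, and p53_WT replicates 3 and 4. The other 9 tumours, p53_G34R replicate 1 among them, have a code of their own, so a tumour and its code cannot be told apart there. A second number in the titles differs in every library. Whether all came from different mice is not stated in the labels, so p-values measure the spread between libraries. Tumours were taken at a functional end point, and no age is given.

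When oxygen is scarce, prolyl hydroxylases such as those encoded by Egln1 and Egln3 slow down, and the alpha subunits of the hypoxia-inducible factors (Hif1a and Epas1) escape destruction and switch on their targets. Among these targets are most enzymes of glycolysis, the lactate exporter Slc16a3, the angiogenic factor Vegfa, the vasodilator peptide gene Adm and the carbonic anhydrase Car9. In gliomas such genes are known to be high around necrotic areas, and Vegfa and Adm act on blood vessels. HIF1A protein is controlled mainly by its stability, so its RNA does not report its activity.

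Hypoxia-inducible factors bind DNA at a short core, ACGTG or GCGTG, and 4 members with such cores before their start are shown because they span the pathway's outputs: the glycolytic enzyme gene Pgk1, the lactate exporter gene Slc16a3, the carbonic anhydrase gene Car9 and the secreted signal gene Adm. Each line gives the 150 bases before a RefSeq transcription start (GRCm38.p6), 5′ to 3′ on the gene's strand. Capitals mark ACGTG or GCGTG on either strand. Gene positions given further below are from GENCODE, whose genes begin upstream of these RefSeq starts for Slc16a3 and Car9. The printed stretch thus lies inside the GENCODE gene for Slc16a3, and partly inside it for Car9.
Pgk1, chrX:106186950-106187099, plus strand: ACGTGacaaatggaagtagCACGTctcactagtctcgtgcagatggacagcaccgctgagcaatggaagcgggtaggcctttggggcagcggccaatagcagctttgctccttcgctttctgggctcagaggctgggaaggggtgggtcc
Slc16a3, chr11:120948917-120949066, plus strand: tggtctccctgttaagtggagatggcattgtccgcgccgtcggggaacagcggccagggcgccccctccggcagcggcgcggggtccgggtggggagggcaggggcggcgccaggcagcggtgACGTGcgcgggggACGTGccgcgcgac
Car9, chr4:43506876-43507025, plus strand: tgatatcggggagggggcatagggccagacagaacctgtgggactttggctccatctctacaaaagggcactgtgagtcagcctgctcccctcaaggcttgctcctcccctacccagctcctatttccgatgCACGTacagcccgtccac
Adm, chr7:110627507-110627656, plus strand: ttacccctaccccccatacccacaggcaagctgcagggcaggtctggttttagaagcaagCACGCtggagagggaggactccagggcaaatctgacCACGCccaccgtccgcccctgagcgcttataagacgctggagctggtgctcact

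RefSeq promoters, 250 bases before to 50 after a start, were matched by symbol for 32 of the 36 members, leaving Epas1, Ndrg1, Plod2 and Lox. ACGTG, searched on both strands, stood in at least 1 promoter of 20 of the 32 members (62.5%). The share was 21.8% over all 27025 genes of that table and 27.9% over the 12523 of them with a mean of at least 10 normalised counts in the tumours. GCGTG stood in 21 of the 32 members (65.6%), against 35.2% and 52.9% of the same 2 sets of genes. ACGTG is also part of the E-box CACGTG, which 4 of the 32 members held (12.5%), against 8.1% and 11% of the same 2 sets, the second close to the members' share. A match is a description of these letters and not a binding site.

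Libraries held 22807315 to 35679129 reads in genes, and levels below are reads divided by a size factor for each library (normalised counts), listed in replicate order. Atrx, the targeted gene, stood at 1346 to 3124 in the 8 floxed tumours and at 5143 to 8540.0 in the 7 intact ones. The tumours are rich in progenitor and glioma markers (7 genes, among them Olig2 and Pdgfra), whose summed level was 30358 (p53_WT replicate 3) to 361149. Single tumours stand apart from their groups. In p53_WT replicate 3, 7 of 7 neuron, 6 of 6 oligodendrocyte and 5 of 5 astrocyte markers had their highest value of all 15 tumours. ATRXfl_WT replicate 1 had the highest value of 6 of 6 endothelial, 5 of 6 mural and fibroblast and 5 of 5 erythroid markers, and p53_WT replicate 1 had the second highest erythroid sum (418569, after 565539). In bulk tissue, fewer cells of a type and less RNA per cell cannot be told apart.

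Single tumours held most of the extreme values. p53_G34R replicate 1 had the highest value of all 15 tumours for 27 of the 36 members, of them 10 of 12 glycolytic enzymes and 17 of the other 24, and it lay above the median tumour for 35 of 36. p53_WT replicate 1 had the lowest value for 20 of 36. The median over members of the log2 level, relative to each member's mean over the 15 tumours, was 1.55 in p53_G34R replicate 1 and 0.74 in ATRXfl_G34R replicate 4, the next highest. It was -1.32 in p53_WT replicate 1 and -0.83 in ATRXfl_WT replicate 1, the 2 tumours with the highest erythroid sums, and ATRXfl_G34R replicate 2, the next by that sum (323236), stood at 0.07. The part of blood in these values was not tested.

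**Figure D1:**
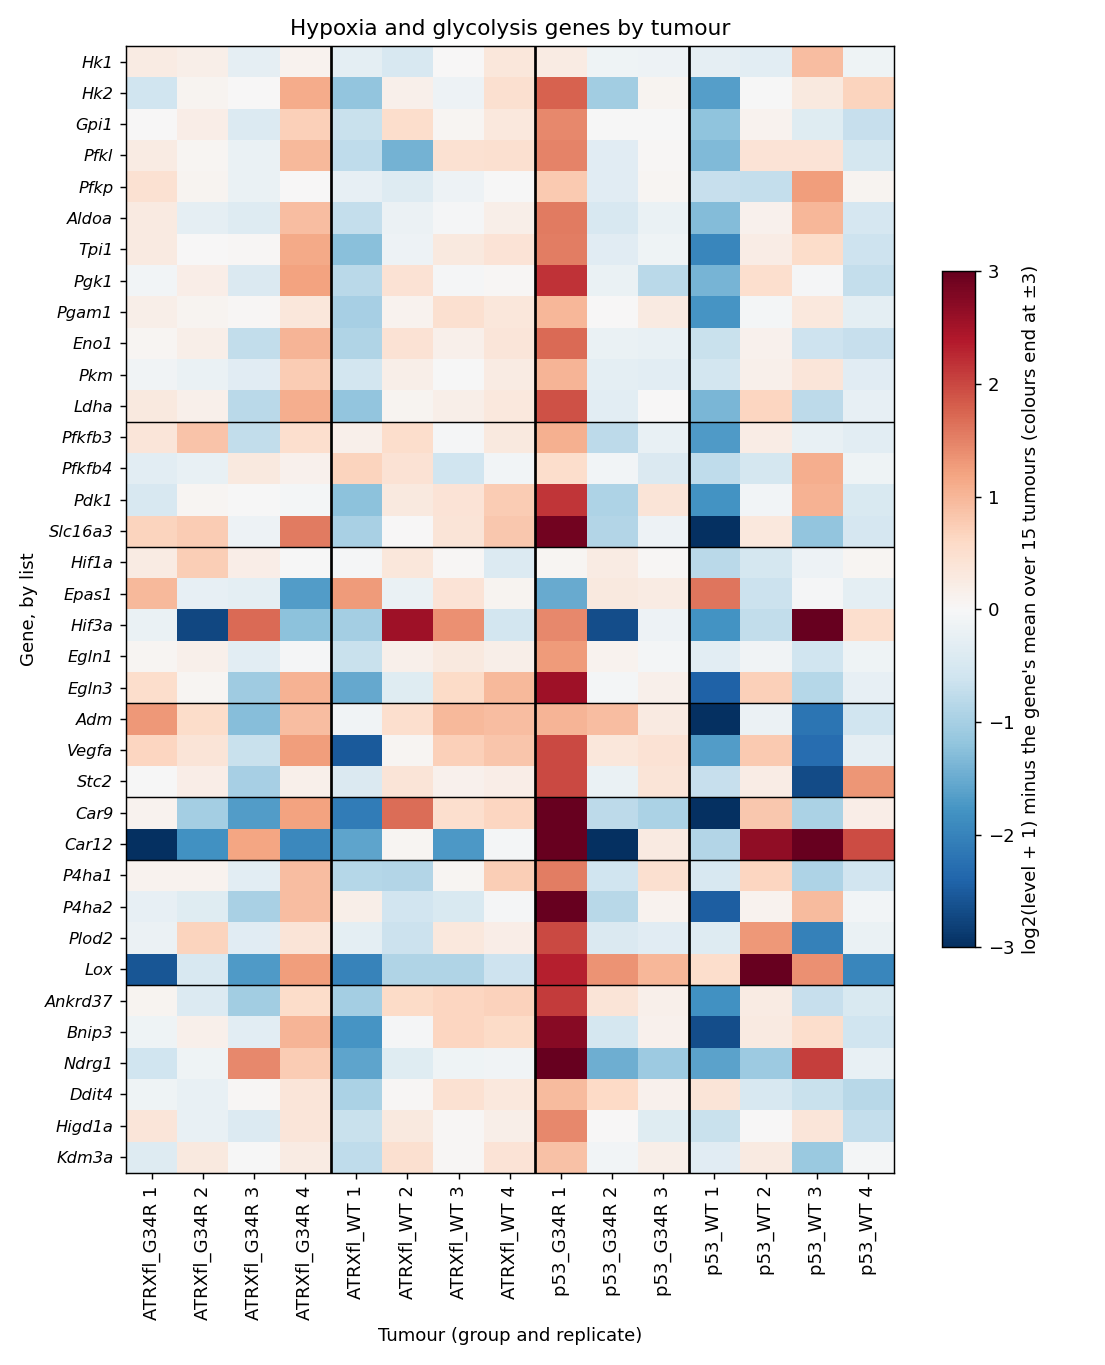
Each row is a member, grouped by list from glycolytic enzymes (top) to intracellular hypoxia-response genes, and each column a tumour. Colour is log2(level + 1) minus the gene's mean over the 15 tumours. The column of p53_G34R replicate 1 is red for nearly every gene (highest for 27 of 36), whereas p53_WT replicate 1 is blue (lowest for 20 of 36).

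Car9, which encodes a membrane carbonic anhydrase that is a standard marker of hypoxic tumour cells (ENSMUSG00000028463, chromosome 4, 43506966 to 43513729, plus strand), showed this most sharply. It stood at 121, 54.9, 34.6 and 262 in ATRXfl_G34R and at 25.4, 362, 160.3 and 176 in ATRXfl_WT. In p53_G34R it stood at 6337, 64.9 and 57.7, against 8.68, 197, 57.3 and 129.7 in p53_WT. The first p53_G34R tumour thus exceeded the next highest of the 15 by 17.5-fold, while the other 2 of its group lay within the range of every other group. The same tumour was 7.13-fold above the next highest for P4ha2, a collagen prolyl hydroxylase gene, 4.05-fold for the stress-response gene Ndrg1, 3.26-fold for Bnip3, a gene of mitochondrial clearance, and 2.82-fold for Egln3. It also had the highest value of 4 of 5 neutrophil markers, with a summed level of 1705, against 279 and 24.8 in the other p53_G34R tumours and 11.7 to 426 in p53_WT. The sum was 101 to 468 in ATRXfl_G34R and 13.3 to 405 in ATRXfl_WT. No marker of that list was at 0 in every tumour, and its part in these levels was not tested.

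limma, on log2(normalised counts + 1) over all genes with a mean of at least 10, with Benjamini-Hochberg adjustment and a threshold of 0.05, called 0 of 36 members in each of the 8 comparisons, and the smallest adjusted p of a member was 0.771. Unadjusted p under 0.05 was reached by 0 to 4 members a comparison in limma. edgeR's quasi-likelihood test also called 0 in each (0 to 6 members under 0.05 before adjustment), as did limma-voom with quality weights (1 to 4). DESeq2 called 1 in each of 2 comparisons: Car12 with Atrx floxed over intact and H3.3WT (adjusted p = 0.0388) and Lox with Atrx floxed over intact averaged over histones (0.0472). It had 1 to 9 members under 0.05 before adjustment. Comparisons that use the same group share its tumours. The text therefore gives values and log2 changes, with unadjusted p-values from limma that do not pass over all genes.

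Among Atrx-intact tumours, H3.3G34R was set against H3.3WT (n = 3 and 4) to ask what the mutant histone does with Atrx present. Adm, the gene of a peptide that widens blood vessels (ENSMUSG00000030790, chromosome 7, 110627661 to 110629820, plus strand), stood at 2820.5, 2662 and 1676 in p53_G34R, against 168, 1239.5, 304 and 914 in p53_WT. Every p53_G34R tumour lay above every p53_WT tumour. The log2 change of 2.24 ± 0.68 SE had an unadjusted p of 0.0113 and an adjusted p of 0.999987 by limma. Over its 18 alternative settings Adm kept an unadjusted p under 0.05 in 18, with adjusted p from 0.807 to 1. Groups did not overlap for 2 of 36 members, Adm and Egln1, both higher with H3.3G34R, beside 2.61% of all genes tested in either direction.

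Vegfa, the main angiogenic factor gene (ENSMUSG00000023951, chromosome 17, 46016993 to 46032369, minus strand), stood at 42019, 13334 and 14341 in p53_G34R, against 3311, 18269, 2188 and 8766 in p53_WT. The groups overlapped, since p53_WT replicate 2 lay above 2 of the 3 p53_G34R tumours, and the log2 change of 1.78 ± 0.77 SE had an unadjusted p of 0.0499. The lowest p53_WT value was that of replicate 3, which had the lowest glioma-marker and highest neuron-marker sum of all 15 tumours, and without it the change was 1.30 (unadjusted p = 0.0971). The unadjusted p was under 0.05 in 4 of 18 alternative settings, with log2 changes from 1.06 to 2.33. For Adm, low in the same tumour, the change without it was 2.01 (unadjusted p = 0.0242). Ankrd37, an ankyrin-repeat gene known as a direct target of HIF1A (ENSMUSG00000050914, chromosome 8, 45996902 to 46005707, minus strand), stood at 851, 260.4 and 221 in p53_G34R, against 55.3, 235, 122 and 143 in p53_WT. Only p53_WT replicate 2 reached into the p53_G34R range (log2 change of 1.57 ± 0.65 SE, unadjusted p = 0.0425). Ddit4, an inhibitor of mTORC1 signalling, stood at 6088, 4765 and 3451 in p53_G34R, against 4144, 2260.0, 1998 and 1789 in p53_WT. Here p53_WT replicate 1, low for most members, was the one that overlapped (log2 change of 0.95 ± 0.35 SE, unadjusted p = 0.027). The adjusted p was 0.999987 for all 3, and the unadjusted p was under 0.05 in 9 of 18 alternative settings for Ankrd37 and 11 for Ddit4.

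These 4 of 36 members with an unadjusted p under 0.05 stand beside 1.47% of all genes, and adjusted calls were 0.0% of all genes. Of the 36 members, 32 had a positive change, with a median of 0.77, beside 0.00 and 49.97% positive over all genes tested. The medians were 0.73 for the 12 glycolytic enzymes (11 of 12 positive) and 0.77 for the other 24 (21 of 24). Without p53_G34R replicate 1, the median was 0.01 for the glycolytic enzymes (6 of 12 positive) and 0.30 for the other members (19 of 24). Without p53_WT replicate 1 these medians were 0.31 and 0.70. Adm moved little on leaving out p53_G34R replicate 1 (log2 change 2.11, unadjusted p = 0.0395), whereas Vegfa (1.25, unadjusted p = 0.178), Ankrd37 (0.96, 0.17) and Ddit4 (0.76, 0.0978) no longer reached an unadjusted p of 0.05. Car9 went to 0.02 without that tumour, against 2.24 with it. The p53_G34R tumours left in these fits share a title code, so whether they are independent is not known.

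**Figure D2:**
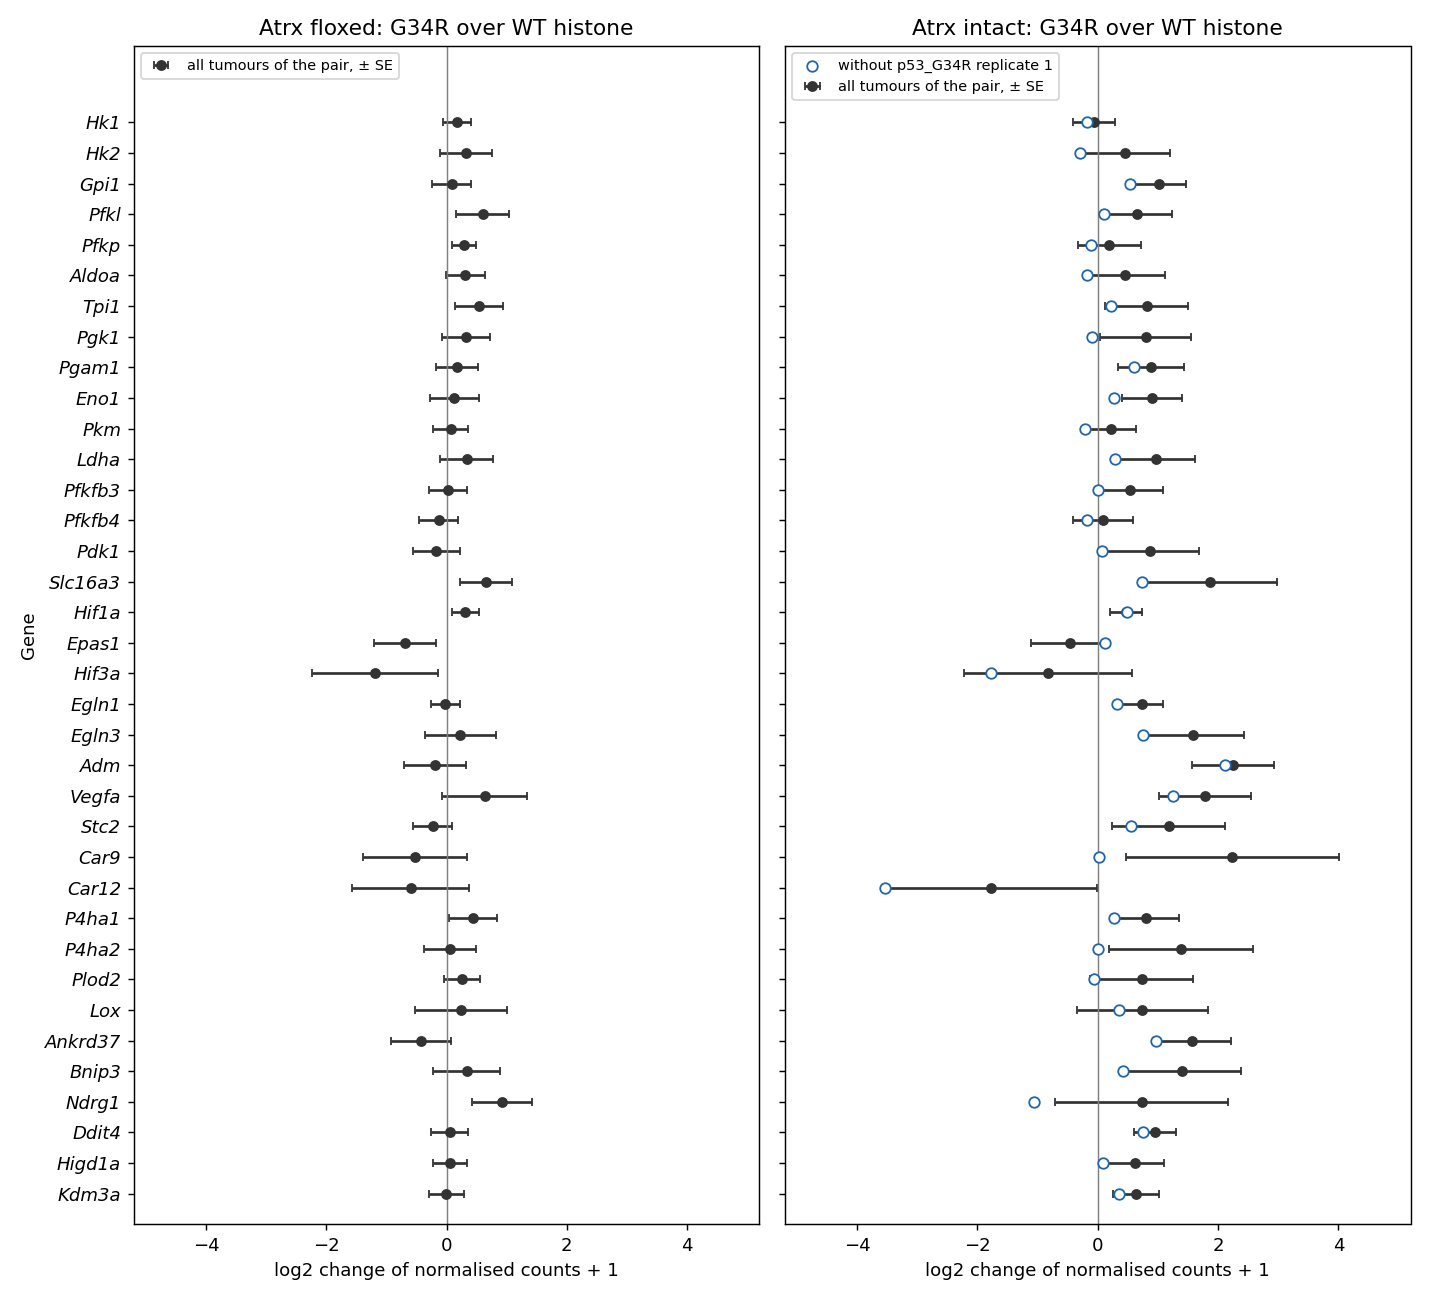
Points are log2 changes of the 36 members between H3.3G34R and H3.3WT tumours, with SE, for Atrx-floxed (left) and Atrx-intact tumours (right). On the right, open points leave out p53_G34R replicate 1. There 32 of 36 changes are positive with every tumour and 25 without that one, and Adm stays near its value. The p53_G34R tumours then left share a title code.

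Among Atrx-floxed tumours (n = 4 each), the same histone comparison gave no member an unadjusted p under 0.05 in limma (0 in edgeR, 1 in DESeq2 and 1 in limma-voom), beside 2.79% of all genes, with adjusted calls at 0.0%. Groups overlapped for all 36 members, beside 2.16% of genes whose groups did not. Adm stood at 3435, 2021, 574 and 2640.5 in ATRXfl_G34R, against 1300.2, 1957, 2711 and 2622 in ATRXfl_WT (log2 change of -0.19 ± 0.51 SE, unadjusted p = 0.719). Vegfa stood at 16467, 13968, 6716 and 25114 in ATRXfl_G34R, against 1859, 11010.0, 17451 and 18829 in ATRXfl_WT (log2 change of 0.64 ± 0.71 SE, unadjusted p = 0.39). ATRXfl_G34R replicate 3 was the lowest tumour of its group in both genes, as was ATRXfl_WT replicate 1 in its group, and the groups overlapped. All 12 glycolytic enzymes had positive changes, with a median of 0.30 and a range of 0.07 to 0.60, and 13 of 24 other members did (median 0.04), beside a median of 0.00 and 49.90% positive over all genes. Without ATRXfl_WT replicate 1, the tumour rich in endothelial and erythroid transcripts, the glycolytic median was 0.04 with 6 of 12 positive, and the median of the others was -0.22 with 7 of 24 positive. The member with the smallest p was Ndrg1 (log2 change of 0.92 ± 0.50 SE, unadjusted p = 0.0945, adjusted p = 0.999677).

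With H3.3WT, Atrx-floxed tumours were set against Atrx-intact ones (n = 4 each) to ask what Atrx loss does without the mutant histone. Adm was again the leading member, at 1300.2, 1957, 2711 and 2622 in ATRXfl_WT, against 168, 1239.5, 304 and 914 in p53_WT. Each ATRXfl_WT tumour lay above each p53_WT tumour, though ATRXfl_WT replicate 1 and p53_WT replicate 2 differ by little. The log2 change of 2.06 ± 0.61 SE had an unadjusted p of 0.00798 and an adjusted p of 0.975, and over 19 alternative settings the unadjusted p was under 0.05 in 19 (adjusted p 0.319 to 0.999932). This comparison shares the p53_WT tumours with the histone comparison above. Adm was the 1 member of 36 whose groups did not overlap, beside 2.65% of all genes.

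Car12, which encodes another membrane carbonic anhydrase (ENSMUSG00000032373, chromosome 9, 66713686 to 66766845, plus strand), had a change of the other sign. It stood at 4.89, 17.5, 4.36 and 16.1 in ATRXfl_WT, against 8.68, 111, 386 and 67.5 in p53_WT. Only p53_WT replicate 1 lay within the ATRXfl_WT range, and p53_WT replicate 3, rich in cortex transcripts, was the highest of all 15 tumours. The log2 change of -2.88 ± 1.06 SE had an unadjusted p of 0.0231 and an adjusted p of 0.975 by limma. DESeq2 gave it an adjusted p of 0.0388, and the authors' deposited table lists a log2 change of -3.75 with an adjusted p of 0.0279. Over the 19 alternatives run here the unadjusted p was under 0.05 in 13 and the adjusted p ran from 0.0388 to 0.999932. In the authors' deposited tables Car12 was the 1 member past 0.05 in this comparison, beside 0.352% of genes, and no member was past it in the other 4 tables. There the shares of genes past 0.05 were 0.0578% (H3.3G34R over H3.3WT, Atrx intact), 0.182% (the same, Atrx floxed), 0.538% (Atrx floxed over intact, H3.3G34R) and 0.38% (both changes over neither).

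Adm and Car12 were the 2 of 36 members with an unadjusted p under 0.05 here, beside 3.76% of all genes, with 0.0335% called after adjustment. Of the 36 changes 29 were positive (median 0.28), beside 49.48% and a median of -0.01 over all genes. Without p53_WT replicate 1 the median was 0.02 with 18 of 36 positive, and the glycolytic median turned to -0.17, against 0.16 with it.

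With H3.3G34R, Atrx-floxed tumours were set against Atrx-intact ones (n = 4 and 3). Lox, which encodes a secreted enzyme that cross-links collagen (ENSMUSG00000024529), stood at 23.3, 103, 43.4 and 347 in ATRXfl_G34R, against 723, 368 and 287 in p53_G34R. ATRXfl_G34R replicate 4 alone reached into the p53_G34R range. The log2 change of -2.43 ± 0.85 SE had an unadjusted p of 0.0201 and an adjusted p of 0.999904, and without p53_G34R replicate 1 the unadjusted p was 0.0662 (under 0.05 in 14 of 18 alternative settings). Lox was the 1 of 36 members under 0.05 before adjustment, beside 3.39% of all genes, with 0.0229% called after it, and groups overlapped for every member, beside 4.64% of genes whose groups did not. Of the 36 changes 6 were positive (median -0.28), beside 50.04% of all genes. Without p53_G34R replicate 1 the count turned to 28 of 36 and the median to 0.20, with 12 of 12 glycolytic enzymes positive, so the direction of the list in this comparison rests on that tumour.

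Tumours with both changes were set against tumours with neither (ATRXfl_G34R over p53_WT, n = 4 each). Slc16a3, the exporter that carries lactate out of glycolytic cells (ENSMUSG00000025161, chromosome 11, 120948480 to 120960868, plus strand), stood at 2020.0, 2135, 1143 and 3767 in ATRXfl_G34R, against 104, 1581, 562 and 896 in p53_WT. The groups overlapped through p53_WT replicate 2 and ATRXfl_G34R replicate 3 (log2 change of 1.95 ± 0.76 SE, unadjusted p = 0.0309). Without p53_WT replicate 1, the lowest, the change of Slc16a3 was 1.17 (unadjusted p = 0.039), and the unadjusted p was under 0.05 in 13 of 19 alternative settings. Hif1a stood at 3308, 4646, 3214 and 2773 in ATRXfl_G34R, against 1589, 1932, 2516 and 2924 in p53_WT (log2 change of 0.65 ± 0.25 SE, unadjusted p = 0.0301). Its groups overlapped through ATRXfl_G34R replicate 4 and p53_WT replicate 4, and the change was small. Adm had a log2 change of 1.88 ± 0.74 SE with an unadjusted p of 0.0324, and ATRXfl_G34R replicate 3 was within the p53_WT range.

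Car12 stood at 0.972, 4.07, 39.5 and 3.62 in ATRXfl_G34R, against 8.68, 111, 386 and 67.5 in p53_WT (log2 change of -3.46 ± 1.24 SE, unadjusted p = 0.0209). ATRXfl_G34R replicate 3 and p53_WT replicate 1 made the groups overlap. At so few counts the size of this change depends on the value added before the log. The adjusted p was 0.999 for each of these 4 members. The unadjusted p was under 0.05 in 14 of 19 alternative settings for Hif1a, 11 for Adm and 14 for Car12. Without p53_WT replicate 1 the change of Adm was 1.37 (unadjusted p = 0.0884). They stand beside 4.37% of all genes under 0.05 before adjustment, 0.0227% called after it and 2.94% with groups that did not overlap, against 0 of 36 members with such groups. Of the 36 changes 32 were positive (median 0.48), beside 49.23% and a median of -0.01 over all genes. All 12 glycolytic enzymes had positive changes (median 0.57), and 7 did without p53_WT replicate 1 (median 0.18). Of the other 24 members 20 did (median 0.44), and 17 without that tumour (median 0.18).

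**Figure D3:**
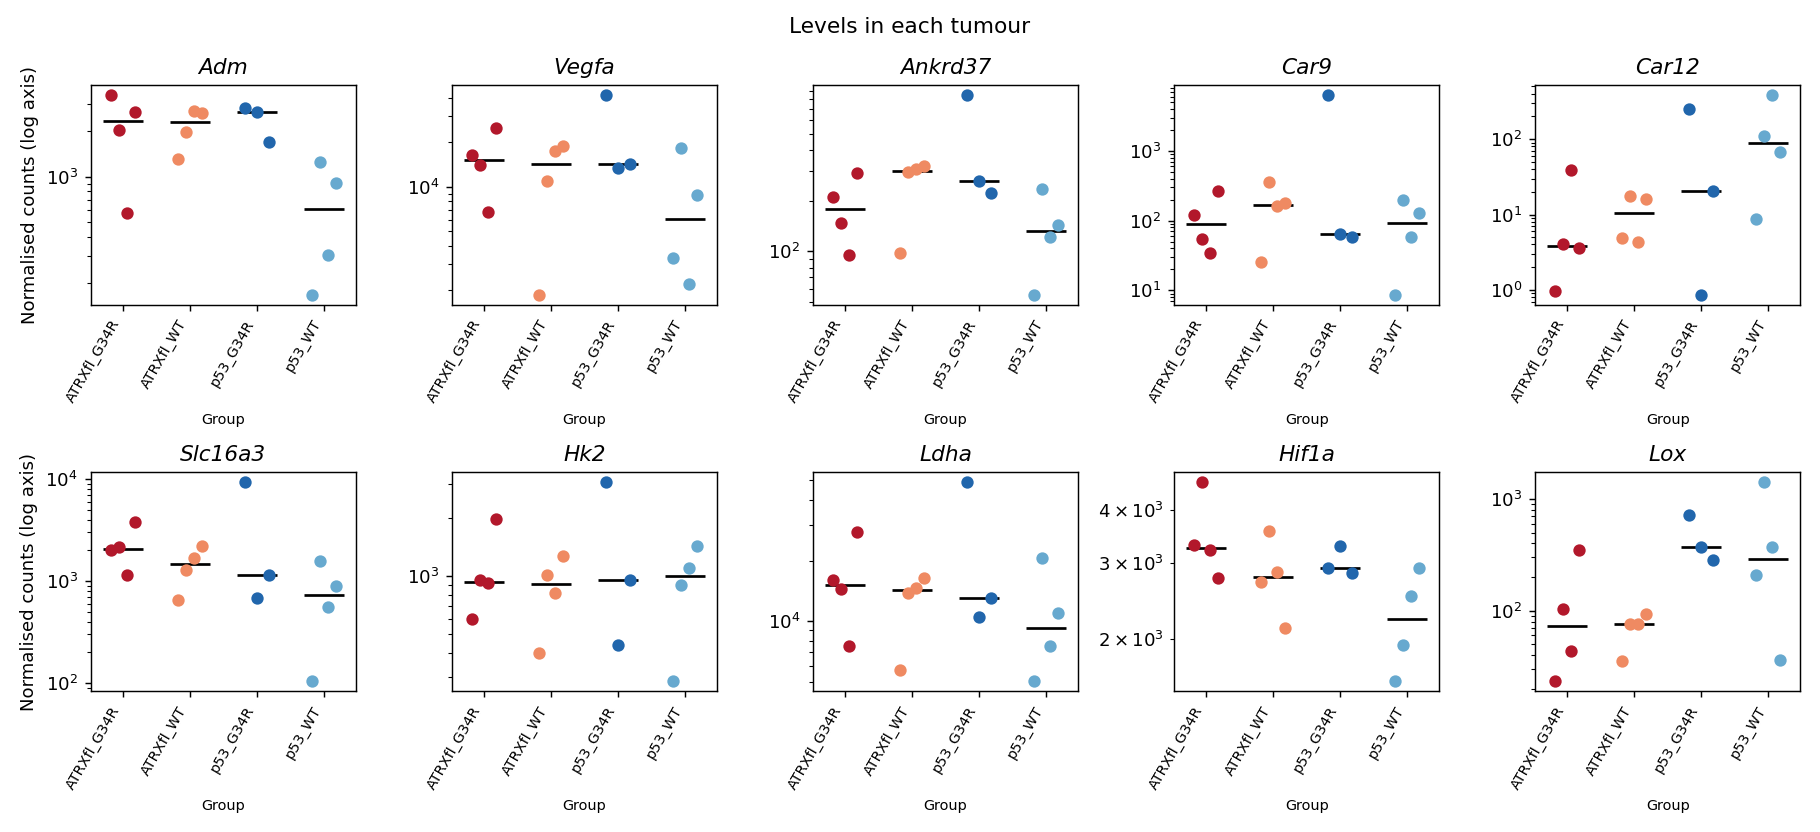
Each point is a tumour and each line a group's median, on a log axis of normalised counts, for 10 members. Every p53_G34R tumour lies above every p53_WT tumour in Adm. In Car9, Slc16a3, Hk2 and Ldha a single p53_G34R tumour stands above the rest, and in Lox 7 of 8 Atrx-floxed tumours lie below 6 of 7 Atrx-intact ones.

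Averaged over Atrx states, H3.3G34R tumours gave 32 of 36 positive changes (median 0.49) and 27 without p53_G34R replicate 1 (median 0.15). Hif1a (log2 change of 0.39 ± 0.17 SE, unadjusted p = 0.0372) and Adm (log2 change of 1.02 ± 0.45 SE, unadjusted p = 0.0404) were the 2 members under 0.05 before adjustment, beside 2.15% of all genes, with 0.0% called after it. They were so in 17 (Hif1a) and 14 (Adm) of 25 alternative settings. Averaged over histones, Atrx-floxed tumours gave 14 of 36 positive changes (median -0.05), and 33 without p53_G34R replicate 1 (median 0.24), so the sign of the median rests on that tumour. The changes were negative for Lox (log2 change of -2.17 ± 0.70 SE, unadjusted p = 0.0079, adjusted p = 0.771) and Car12 (log2 change of -2.29 ± 1.03 SE, unadjusted p = 0.0428), neither past the threshold in limma. Lox stood at 23.3, 103, 43.4 and 347 in ATRXfl_G34R and 35.2, 75.9, 76.7 and 93.7 in ATRXfl_WT, against 723, 368 and 287 in p53_G34R and 209, 1428, 375 and 36.3 in p53_WT. The highest of 8 floxed tumours thus lay below 4 of the 7 intact ones, while p53_WT replicate 4 was as low as the floxed tumours. The unadjusted p of Lox was under 0.05 in 25 of 25 alternative settings, with an adjusted p from 0.0472 (DESeq2) to 0.999717. For Car12 it was under 0.05 in 14 of 25, and without p53_G34R replicate 1 its change was -1.41 (unadjusted p = 0.158). By histone, Car12 without that tumour had a log2 change of 0.05 ± 1.47 SE with H3.3G34R, against -2.88 ± 1.06 SE with H3.3WT. The 2 members stand beside 4.87% of all genes under 0.05 before adjustment and 0.0956% called.

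The interaction asks whether the histone's effect differs between Atrx states. It was negative for Adm (log2 change of -2.44 ± 0.91 SE, unadjusted p = 0.0175, adjusted p = 0.999591), whose mean was lowest in p53_WT. Means were 2168 ± 1209.8 in ATRXfl_G34R and 2148 ± 658 in ATRXfl_WT (SD, n = 4 each), and among Atrx-intact tumours 2386 ± 620.0 in p53_G34R (SD, n = 3), against 657 ± 506 in p53_WT (SD, n = 4). Ankrd37 had a log2 change of -1.99 ± 0.84 SE with an unadjusted p of 0.0315, and 0.112 without p53_G34R replicate 1, where Adm had 0.0391. These 2 of 36 stand beside 2.05% of all genes under 0.05 before adjustment and 0.0% called after it. The median interaction over members was -0.54 with every tumour and -0.05 without p53_G34R replicate 1.

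**Figure D4:**
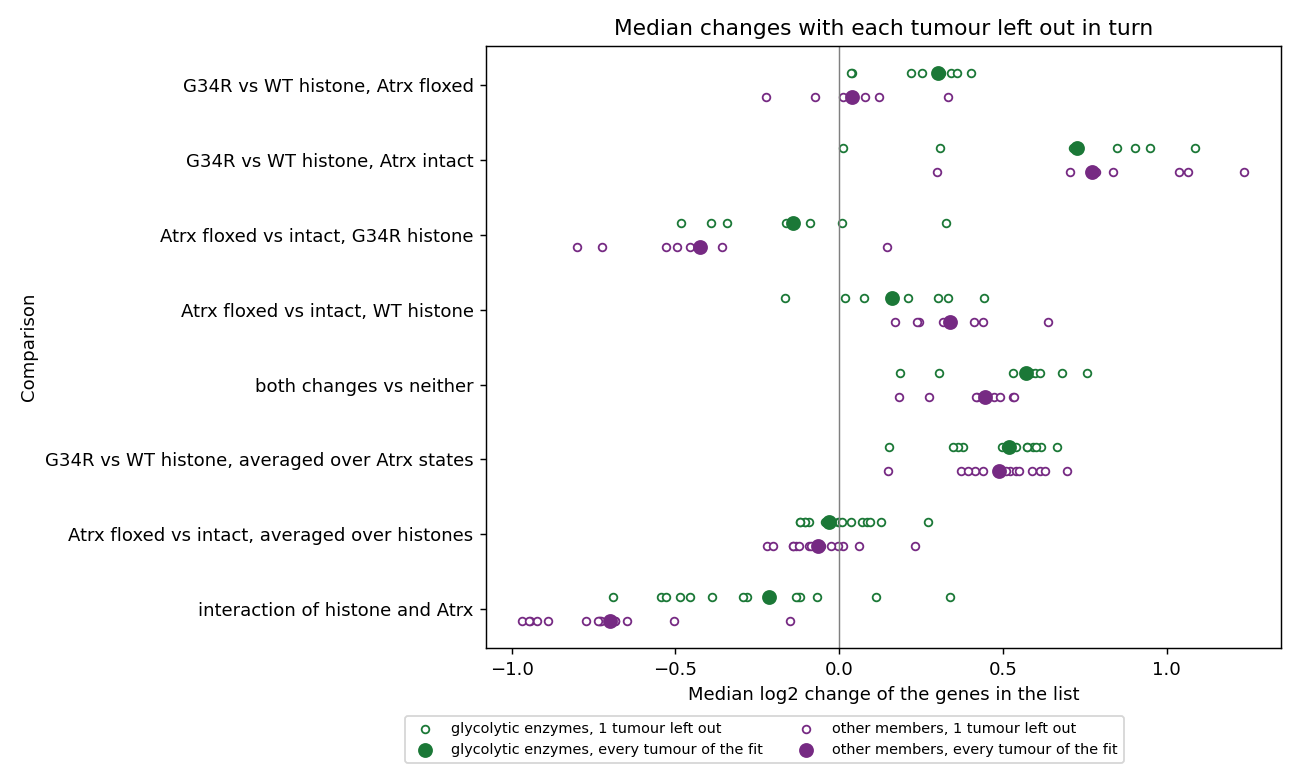
Filled points are the median log2 change of the 12 glycolytic enzymes (green) and the other 24 members (purple) in each comparison, and open points the same with 1 tumour left out. In Atrx floxed over intact with H3.3G34R the medians cross 0 without p53_G34R replicate 1 (0.33 and 0.15, against -0.14 and -0.43).

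The oxygen-sensing genes were mixed. Hif1a (ENSMUSG00000021109, chromosome 12, 73901375 to 73947530, plus strand) had the smallest spread over tumours of the 8 members followed for their role (SD of log2 level 0.37, against 0.85 to 2.12 for the other 7). It stood at 3308, 4646, 3214 and 2773 in ATRXfl_G34R and 2704, 3556, 2855 and 2115 in ATRXfl_WT, and among Atrx-intact tumours at 2915, 3295 and 2839 in p53_G34R, against 1589, 1932, 2516 and 2924 in p53_WT. p53_G34R replicate 1, the highest for most targets, was in the middle of the Hif1a range. Epas1, which encodes HIF2A and is known to be high in endothelial cells, had another order: it stood at 16533, 7112, 6846 and 2619 in ATRXfl_G34R and 20359, 7306, 11099 and 8841 in ATRXfl_WT, and among Atrx-intact tumours at 2957, 10349 and 9993 in p53_G34R, against 25389, 5359, 8216 and 6812 in p53_WT. Its highest values were in p53_WT replicate 1 and ATRXfl_WT replicate 1, which had most of the lowest values of the other members, and its lowest were in ATRXfl_G34R replicate 4 and p53_G34R replicate 1. The summed endothelial markers were 70647 in ATRXfl_WT replicate 1 and 6536 in p53_WT replicate 1, and the second is within the range of the other 13 tumours.

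Hif3a, an alpha subunit gene whose products can restrain the others, ranged from 4.07 to 381 normalised counts and was highest in p53_WT replicate 3. The prolyl hydroxylase genes Egln1 and Egln3 are themselves targets of the factors. Egln3 stood at 4624, 759 and 881 in p53_G34R, against 148, 1317, 440.2 and 667 in p53_WT (log2 change of 1.58 ± 0.86 SE, unadjusted p = 0.104). Egln1 stood at 11482, 5105 and 4597 in p53_G34R, against 3793, 4387, 3118 and 4361 in p53_WT, without overlap (log2 change of 0.74 ± 0.35 SE, unadjusted p = 0.0692). Apart from the first p53_G34R tumour, the gap in Egln1 was small.

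Glycolytic enzymes were among the most abundant members. Per kilobase of annotated exon, the mean level over the 15 tumours was 8498 normalised counts for the aldolase gene Aldoa, 4692 for the lactate dehydrogenase gene Ldha, 4379 for the pyruvate kinase gene Pkm and 3799.8 for the triosephosphate isomerase gene Tpi1. Vegfa, at 3324 per kilobase, came next. The hexokinase gene Hk1 stood at 955 per kilobase and its hypoxia-inducible relative Hk2 at 180.0. Per kilobase, Ldha stood at 4948 ± 2532 in ATRXfl_G34R and 3814 ± 1420.0 in ATRXfl_WT (SD, n = 4 each), and among Atrx-intact tumours at 7329.7 ± 6546 in p53_G34R (SD, n = 3), against 3335 ± 2049 in p53_WT (SD, n = 4).

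By tumour, Ldha (ENSMUSG00000063229, chromosome 7, 46841475 to 46855627, plus strand) stood at 15978, 14369.8, 7494 and 27672 in ATRXfl_G34R and 5754, 13778, 14634 and 16327 in ATRXfl_WT, and at 49239, 10508 and 13036 in p53_G34R, against 5031, 20521, 7574 and 11029 in p53_WT. In the Atrx-intact histone comparison it had a log2 change of 0.97 ± 0.65 SE, which was 0.29 without p53_G34R replicate 1. Hk2 (ENSMUSG00000000628, chromosome 6, 82725025 to 82774454, minus strand) stood at 598, 955, 916 and 1969 in ATRXfl_G34R and 398, 1008, 819.8 and 1265 in ATRXfl_WT, and among Atrx-intact tumours at 3074, 440.3 and 956 in p53_G34R, against 285, 895, 1106 and 1427 in p53_WT. Both enzymes had wide, overlapping groups, and Hk2 turned to -0.29 in the Atrx-intact histone comparison without that tumour, against 0.45 with it. Slc16a3 stood at 647, 1287, 1667 and 2211 in ATRXfl_WT and 9393, 689 and 1145 in p53_G34R.

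Pgk1, the phosphoglycerate kinase gene whose promoter is shown above (ENSMUSG00000062070, chromosome X, 106187100 to 106203699, plus strand), stood at 386, 467, 301 and 937 in ATRXfl_G34R and 232, 550.3, 396 and 419 in ATRXfl_WT, and among Atrx-intact tumours at 1829, 353 and 234 in p53_G34R, against 154, 580.4, 400.0 and 249 in p53_WT. Its groups overlapped in each of the 5 comparisons of 2 groups. Pgk1 and the mutase gene Pgam1 were low for core enzymes (222 and 178 per kilobase). The annotation holds 3 pseudogenes named for Pgk1 and 2 for Pgam1, and how the authors counted reads that match several places is not given in the sources used here, so the levels of both are uncertain. The same holds for Ldha and Aldoa, with 2 named pseudogenes each. A second gene ID also named Aldoa held 19 to 89 reads a library and was not used. Hk1 and the phosphofructokinase gene Pfkp differed from the rest: both were highest in p53_WT replicate 3 (15062 and 11112), the tumour rich in neuron and astrocyte markers (summed neuron markers 151000.0, against 9973 in the next tumour), whose part in these 2 values was not tested.

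**Figure D5:**
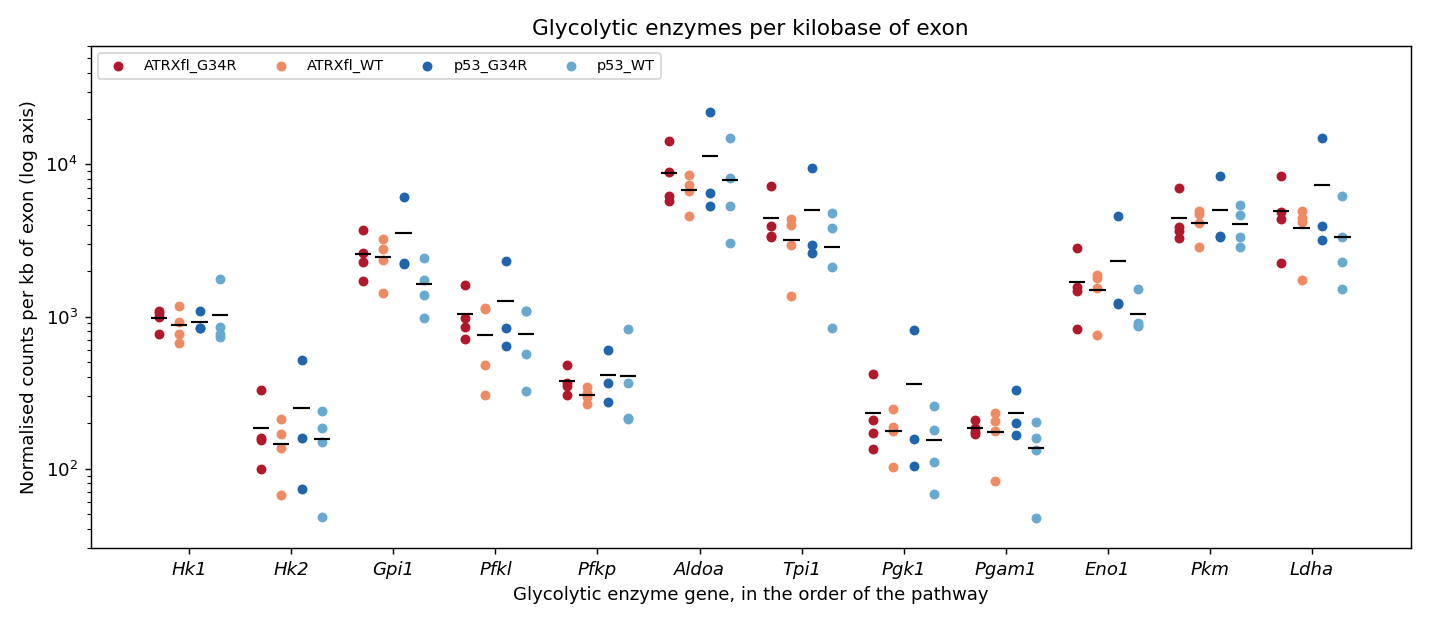
Points are tumours and bars group means, in normalised counts per kilobase of exon on a log axis, for the 12 enzymes in pathway order. p53_G34R replicate 1 is the highest tumour for 10 of 12, and no 2 compared groups lie apart for any enzyme.

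Most remaining members were highest in p53_G34R replicate 1. The collagen-modifying genes P4ha1 (prolyl hydroxylase, 2218 to 12166 over the 15 tumours), P4ha2 (42.3 to 3290.2) and Plod2 (lysyl hydroxylase, 368 to 5977) were each highest in p53_G34R replicate 1, and Lox was highest in p53_WT replicate 2. Higd1a, a mitochondrial gene (536 to 2402), and the histone demethylase gene Kdm3a (1482 to 5878) were highest in p53_G34R replicate 1. The same tumour had the highest values of Bnip3 (32.5 to 1399.8) and Ndrg1 (151 to 7944). Pdk1, whose kinase restrains pyruvate entry into the citric acid cycle (336 to 5169), was also highest in that tumour. So were Pfkfb3, which makes an activator of phosphofructokinase (768 to 5218), and the secreted glycoprotein gene Stc2 (78.6 to 2034). Pfkfb4 (219 to 796) was highest in p53_WT replicate 3. The enzymes not described singly (Gpi1, Pfkl, Tpi1, Eno1 and Pkm) were each highest in p53_G34R replicate 1, from 2.95-fold (Pkm) to 11.3-fold (Tpi1) above their lowest tumour. In that tumour, over the 24 members outside glycolysis the median log2 level relative to the mean was 1.98, and 1.51 over the glycolytic enzymes.

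Of 22 other hypoxia-induced genes outside the list, 20 had positive changes in the Atrx-intact histone comparison (median 0.92), 14 in the Atrx-floxed one (median 0.14), 20 with Atrx floxed over intact and H3.3WT (median 0.60) and 7 with H3.3G34R (median -0.06). None passed over all genes in these comparisons by limma, and 4 of 22 had an unadjusted p under 0.05 in the Atrx-intact histone comparison, from which Hmox1 and Pgf are named for their small p. Without p53_G34R replicate 1, 16 were positive (median 0.24) in the Atrx-intact histone comparison. With Atrx floxed over intact and H3.3G34R, 19 were then positive (median 0.39), against 7 with that tumour, so the direction there rests on it. Without p53_WT replicate 1, 18 were positive (median 0.42) with Atrx floxed over intact and H3.3WT. With both changes over neither, 21 of the 22 were positive (median 0.82), and 20 without p53_WT replicate 1 (median 0.45). There 7 had an unadjusted p under 0.05 by limma, beside 4.37% of all genes, and 3 did without that tumour. None of the 22 passed after adjustment in either fit. Hmox1, the heme oxygenase gene, stood at 59739, 16250.1 and 9723 in p53_G34R, against 1335, 8632, 4519.9 and 5921 in p53_WT (log2 change of 2.34 ± 0.78 SE, unadjusted p = 0.0173, adjusted p = 0.999987). Without p53_G34R replicate 1 the change of Hmox1 was 1.59 (unadjusted p = 0.0663). Pgf, a relative of Vegfa, stood at 1087, 591 and 218 in p53_G34R, against 68.3, 182, 185 and 217 in p53_WT (log2 change of 1.79 ± 0.64 SE, unadjusted p = 0.0234). Without p53_G34R replicate 1 the change of Pgf was 1.27 (unadjusted p = 0.0977), and 0 of the 22 genes then had an unadjusted p under 0.05. Neither gene's groups overlapped, beside 2.61% of all genes, and p53_G34R replicate 3 and p53_WT replicate 4 nearly met in Pgf. Both genes were named for a small p in this comparison, so the lack of overlap adds no support. The share of the 22 genes whose groups lay apart is not given here. In ATRXfl_WT, Hmox1 stood at 14800.2, 30959.6, 13354 and 12813 and Pgf at 1045, 326, 234 and 648, each tumour above every p53_WT tumour, beside 2.65% of all genes whose groups lay apart (unadjusted p = 0.00598 and 0.0165, adjusted p = 0.975 for both). This comparison shares the p53_WT tumours with the one from which both genes were named. Hmox1 is also induced by heme and oxidative stress.

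Of 22 pyruvate entry and citric acid cycle genes, 5 had positive changes in the Atrx-intact histone comparison (median -0.23) and 2 with Atrx floxed over intact and H3.3WT (median -0.16), beside 17 in the Atrx-floxed histone comparison (median 0.15). The 36 members had medians of 0.77 and 0.28 in the first 2 of these comparisons, which share the p53_WT tumours. Among those is p53_WT replicate 3, with the highest neuron, oligodendrocyte and astrocyte marker sums and the lowest glioma-marker sum of all tumours. The part of that tumour in the citric acid cycle medians was not tested. Of the citric acid cycle list without p53_G34R replicate 1, 7 were positive (median -0.14) in the Atrx-intact histone comparison, and without p53_WT replicate 1, 2 were positive (median -0.27) with Atrx floxed over intact and H3.3WT. Left out in the same way, the members' medians were 0.18 and 0.02, and those of the glycolytic enzymes 0.01 and -0.17. For Atrx floxed over intact with H3.3WT, the glycolytic enzymes thus had the sign of the citric acid cycle genes without p53_WT replicate 1. Of 14 other glucose uptake and glycolysis genes 6 were positive in the Atrx-intact histone comparison (median -0.16), of 10 other oxygen-sensing genes 7 (median 0.10) and of 7 pentose phosphate genes 5 (median 0.23). Eno2, the neuronal enolase gene, stood at 5534, 3494, 6344 and 5359 in ATRXfl_G34R, against 1421, 1334 and 1163 in p53_G34R. The groups lay apart (log2 change of 1.96 ± 0.23 SE, unadjusted p = 2.15e-05), and the adjusted p of 0.0537 missed the threshold in limma. Over 18 alternative settings its adjusted p ran from 4.89e-10 (DESeq2) to 1 (all 4 groups in 1 fit). In p53_WT replicate 3, with its neuron transcripts, Eno2 was at 31246.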

How the data were processed

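TruSeq mRNA libraries of 15 mouse brain tumours were sequenced, per the labels' protocols. STAR 2.7, HTSeq and DESeq2, with mm10, are named by the submitters' processing notes. Settings, strand handling and annotation: not given in the sources used here. In all, the authors deposited 5 tables of 54232 genes, 1 for each pair of groups, whose signal per library is a gene count divided by a size factor. Dividing by the value of 1 read gave whole reads (within 0.01) for 100.0% of values. The deposited log2 fold changes and adjusted p-values, which the authors made with DESeq2, were copied only where their tables are named, and the deposited Wald score of each gene was not used.

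Symbols and positions come from GENCODE M21 (mm10), which named 54079 IDs (99.7%). Each pair of groups was fitted on its own table with limma 3.58.1 (trend, robust) on log2(value + 1), keeping means of 10 or more. Averages and the interaction were fitted on the recovered reads of all 15 libraries, scaled by the median of ratios, and levels are on that scale. P-values were adjusted over all genes (Benjamini-Hochberg, 0.05). Library sizes of 22807315 to 35679129 reads limit the precision of genes with few counts. Alternatives were edgeR 4.0.16, DESeq2 1.42.0, limma-voom with quality weights, TMM scaling, no filter, pseudocounts of 0.5 and 5, libraries sharing a title code summed, log2 Xist as a covariate, all groups in 1 fit, and tumours left out. The fits were tested on simulated data. The members and lists were chosen with earlier results of these data known. All 36 members are accounted for. Named with values per tumour are 8 members set for their role (Adm, Vegfa, Hif1a, Car9, Slc16a3, Hk2, Pgk1 and Ldha), those with an unadjusted p under 0.05, at most 6 a comparison, and of other lists at most 3 a comparison. Epas1, Egln1, Egln3 and the extremes of single tumours were added after their values were seen.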

Additional observations from a re-analysis of the deposited data

Results flagged for a closer look

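In groups of 4 tumours, 9 of 108 combinations of gene and group held 1 tumour far from the other 3: its gap to the nearest tumour, as a share of the group's range, was above Dixon's 95% critical value for 4 samples. For normally distributed values chance gives such a value in about 1 of 20 groups. The shares were taken on normalised counts without a log, and genes share tumours, so that rate need not hold here. In p53_WT replicate 3, rich in neuron, oligodendrocyte and astrocyte markers, Hk1 (share 0.893, 15062 normalised counts), Hif3a (0.898, 381) and Ndrg1 (0.865, 1960.0) stood above the group. ATRXfl_G34R replicate 4 stood above its group in Tpi1 (0.848, 19843) and Pkm (0.848, 35198). Eno1 was highest in p53_WT replicate 2 (0.944, 8209), Epas1 in p53_WT replicate 1 (0.857, 25389) and Car12 in ATRXfl_G34R replicate 3 (0.92, 39.5). Ankrd37 was lowest in ATRXfl_WT replicate 1 (0.881, 97.8). Groups of 3 were not checked in this way, so p53_G34R replicate 1 is not among these.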

How the results depend on the processing

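The count of members called was 0 under every setting run, except that DESeq2 called 1 with Atrx floxed over intact and H3.3WT (Car12, adjusted p = 0.0388) and 1 averaged over histones (Lox, 0.0472). Over all genes DESeq2 called 27 (H3.3G34R over H3.3WT, Atrx floxed), 6 (Atrx intact) and 11 (averaged), 102 (Atrx floxed over intact, H3.3G34R), 68 (H3.3WT) and 87 (averaged), 83 (both changes over neither) and 7 (interaction), against 0, 0, 0, 4, 6, 17, 4 and 0 by limma. With H3.3G34R, Atrx floxed over intact gave 12 without the filter on low values and 0 by edgeR, with libraries sharing a title code summed, with log2 Xist as a covariate, or without the tumours rich in cortex transcripts. With H3.3WT it gave 2 by edgeR, by summed libraries and with Xist. Both changes over neither gave 2 by edgeR, by summed libraries, with Xist and with 0.5 added before the log. limma-voom gave 38 for Atrx averaged over histones. With 1 tumour left out in turn, the counts over all genes were 0 to 5 for Atrx floxed over intact with H3.3G34R, 2 to 8 with H3.3WT, 2 to 8 for both changes over neither and 10 to 25 averaged over histones, and 0 in the others. Of 6046 member changes under other settings 129 moved by at least their SE, 49 of them without p53_G34R replicate 1, and of 504 list medians 3 did, all without that tumour. No paired analysis was possible because replicate numbers are not given in the labels and only name the libraries. The cause of these differences between settings was not tested. With 3 or 4 tumours a group and members that vary several-fold within it, a difference that misses the threshold is not shown to be absent.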
